A study of Mus musculus with 31 samples.

Results

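The genes described here encode the contractile apparatus and the actin cytoskeleton of the fibroblast. They are 43 genes chosen by symbol, and all 43 were found among the 24421 genes of the count table. They were split by the known role of the protein into 15 muscle isoforms, 16 genes of cytoplasmic actin, cytoplasmic myosin and their binding proteins, 8 genes of LIM-domain, Z-disc and actin-anchoring proteins, and Srf with its 3 co-activators. The counts are per gene symbol, so splice forms of the same gene were not told apart. Of the 43, 41 passed the filter on low counts and were tested. Actc1 and Myocd were too low. RNA was sequenced from fibroblasts taken from C57Bl/6 mouse hearts, the animals being 8-12 weeks of age, and placed in culture as 3D, as 2D or in another arrangement. The moved cultures were 3D-2D-3D, 3D-2D-2D and 3D-2D, names read here as the order of arrangements. The other groups were 3D, 2D, 3D-5days, 2D-5days, and 2D cultures labelled 0.5, 8 and 64 kPa. All cells were untreated and carried no engineered allele. There were 29 libraries, 3 per group except 2 of 3D-2D. The sources used here do not say how long cells stayed in each arrangement, what the 3D arrangement or the substrates were made of, or whether replicates came from separate animals, so that a p-value here speaks of the spread among libraries alone, and that spread may be technical.

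Actin filaments and myosin II form the stress fibres with which a fibroblast pulls on its surroundings. A fibroblast that becomes a myofibroblast, as in a healing or scarred heart, adds smooth muscle isoforms such as the actin of Acta2 to its cytoplasmic actins. Many of these genes are targets of the transcription factor SRF, which binds a motif called the CArG box. Its co-activators Mkl1 and Mkl2 (Mrtfa and Mrtfb in current nomenclature) are held by monomeric actin and are released to the nucleus when actin is assembled into filaments; Myocd is the related co-activator of smooth and cardiac muscle.

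The CArG box, a motif of 10 bases, is palindromic as a class, so that 1 search covers both strands. RefSeq promoter windows on GRCm38.p6 (mm10), from 250 bases before to 50 bases after an annotated start, were found for 38 of the 43 genes, in 50 windows. Windows of 9 of these 38 genes (23.7%) held an exact box, against 1.81% of the 27025 genes in the table of promoters. The 9 were Acta1, Actc1 and Myl9 of the muscle isoforms, Actg1, Cnn2 and Myl6 of the cytoplasmic genes, Fhl1 and Fhl2, and Srf itself. With 1 mismatch allowed among the 6 central bases, the counts were 15 of 38 (39.5%) against 11.3% of all genes, and Acta2 then had a pair of boxes. Actb, Actg2, Myh11, Myocd and Tagln had no entry. The list holds genes known as SRF targets, and a match is a description of the letters in a window, not a measured binding site. The stretches with a box are shown because they let the genes below be compared with the element through which SRF is known to act. Each is read 5′ to 3′ on the strand of the gene, with the boxes in capitals and 20 bases on either side of the outermost box.
Srf, chr17:46556195-46556264, minus strand: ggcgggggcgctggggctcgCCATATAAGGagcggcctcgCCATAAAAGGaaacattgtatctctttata
Acta1, chr8:123894819-123894868, minus strand: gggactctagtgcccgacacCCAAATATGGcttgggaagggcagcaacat
Actc1, chr2:114052893-114052942, minus strand: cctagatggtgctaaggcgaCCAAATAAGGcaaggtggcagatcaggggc
Myl9, chr2:156775283-156775332, plus strand: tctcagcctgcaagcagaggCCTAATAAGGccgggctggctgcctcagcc
Acta2, boxes with 1 mismatch each, chr19:34255378-34255477, minus strand: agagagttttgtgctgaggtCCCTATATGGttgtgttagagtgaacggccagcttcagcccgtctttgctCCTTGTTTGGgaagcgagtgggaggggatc
Actg1, chr11:120348556-120348605, minus strand: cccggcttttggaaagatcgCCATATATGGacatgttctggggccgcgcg
Cnn2, chr10:79988524-79988573, plus strand: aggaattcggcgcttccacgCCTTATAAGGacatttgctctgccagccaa
Myl6, chr10:128493030-128493079, minus strand: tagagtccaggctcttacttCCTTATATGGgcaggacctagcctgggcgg
Fhl1, chrX:56779561-56779610, plus strand: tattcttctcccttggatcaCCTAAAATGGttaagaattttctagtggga
Fhl2, inner start, chr1:43163963-43164012, minus strand: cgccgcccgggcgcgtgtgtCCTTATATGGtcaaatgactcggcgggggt
Fhl2, outer start, chr1:43196828-43196877, minus strand: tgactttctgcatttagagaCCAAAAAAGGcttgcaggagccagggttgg
Boxes began 82 and 62 bases before the start of Srf, 73 before that of Acta1, 47 before Actc1, 161 before Myl9, 90 before Actg1, 56 before Cnn2, 50 before Myl6 and 102 before Fhl1. In Fhl2 they lay 31 and 96 bases before different starts, and the mismatched boxes of Acta2 lay 84 and 34 bases before its start. The muscle and the cytoplasmic genes each had 3 with an exact box, of 12 and of 15 with a window.

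The total of gene counts ranged from 8509987 to 29909400 per library. Levels are CPM, counts scaled to the effective library total, and can be compared between libraries for 1 gene but not between genes, which differ in length. Some libraries stood apart from their group. Between replicates 1 and 2 of 3D the log2 differences of genes had an SD of 0.292, and between these and replicate 3 the SDs were 1.10 and 1.01. In 2D the same values were 0.323, 0.773 and 0.764. Replicate 3 also stood apart in 3D-2D-3D and on the substrates, and replicate 1 at 5 days. Fibroblast markers were high in every library, with Col1a1 at 5336 CPM or more and Pdgfra at 221 CPM or more. Of the cardiomyocyte markers, Myh6 reached at most 1.89 CPM in any library, while Tnnt2 was between 64.4 and 203 CPM in 3D, against 9.48 to 22.9 CPM in 2D. All 14 cardiomyocyte markers summed to 67.9 to 209 CPM in 3D, against 10.9 to 26.9 CPM in 2D, and Tnnt2 made up most of the sum. Of the 8 tested, 1 was called higher in 3D and 0 lower. The summed level of 12 macrophage markers was 7412, 5207 and 194 CPM in replicates 1, 2 and 3 of 3D, against 1030 to 1319 CPM in 2D. Of the 12, 3 were called higher in 3D and 0 lower, where 26.7% of all genes tested were called higher and 27.3% lower. In cultures of mixed cells, fewer cells of a type and less RNA per cell cannot be told apart. Log2 fold changes below come with their standard error, and adjusted p-values are from the quasi-likelihood test of edgeR over all 14036 genes tested, a gene being called at an adjusted p under 0.05.

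Cells in 3D were set against cells in 2D to ask what the arrangement of the culture does. The contractile and cytoskeletal genes were lower in 3D almost throughout: 37 of the 41 tested were called lower and 2 higher, where 27.3% of all genes tested were called lower and 26.7% higher. The median log2 fold change was -3.14 over the muscle isoforms, -1.41 over the cytoplasmic genes, -1.34 over the LIM and Z-disc genes and -0.71 over Srf, Mkl1 and Mkl2, beside 0.03 over all genes tested. The filter kept genes that were high in any group, so these counts describe the genes that passed it.

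Among the muscle isoforms, 12 of 14 tested were called lower in 3D. Acta2 (chromosome 19, 34240336 to 34255585), the smooth muscle actin that marks myofibroblasts, had 50.4, 60.5 and 49.5 CPM in 3D, against 3368, 3876 and 1955 CPM in 2D. The groups were far apart, and replicate 3 was the lowest of the 2D libraries. Acta2 thus changed by -5.84 ± 0.47 on the log2 scale (edgeR adjusted p = 2.64e-09). Tagln (transgelin, an actin-binding protein of smooth muscle) had 23.1, 26.7 and 27.5 CPM in 3D, against 1302, 1508 and 1185 CPM in 2D, a log2 fold change of -5.69 ± 0.38. Myl9, a regulatory light chain of myosin II, had 6.80, 8.07 and 4.65 CPM in 3D, against 256, 287 and 106 CPM in 2D (-5.06 ± 0.42). In both genes every 3D library lay below every 2D library.

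Cnn1 (calponin, an actin-binding regulator of contraction) was at 0, 0.382 and 0.0694 CPM in 3D, against 40.8, 57.0 and 4.14 CPM in 2D, a log2 fold change of -7.78 ± 0.85 (edgeR adjusted p = 1.41e-07). Actg2, the second smooth muscle actin, had 0.355, 0.286 and 0.347 CPM in 3D, against 29.03, 36.6 and 6.88 CPM in 2D (-6.15 ± 0.74). In both genes replicate 3 of 2D was several-fold below the other 2D libraries and still above every 3D library. Lmod1 (leiomodin, a nucleator of actin filaments) changed by -5.15 ± 0.60. Tpm2, a tropomyosin that lines actin filaments, had 26.8, 30.2 and 42.0 CPM in 3D, against 431, 494 and 315 CPM in 2D (-3.65 ± 0.32). Tpm1, at 207, 216 and 256 CPM in 3D against 884, 982 and 749 CPM in 2D, changed less, by -1.95 ± 0.12. Cald1 (caldesmon) and Smtn (smoothelin), which bind the filaments of contractile cells, changed by -1.83 ± 0.11 and -1.77 ± 0.24.

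Myh11, the myosin heavy chain of smooth muscle, had 1.12, 0.764 and 1.25 CPM in 3D, against 8.90, 9.39 and 1.53 CPM in 2D. The lowest 2D library, replicate 3, was close to the 3D libraries. The log2 fold change of -2.62 ± 0.55 was called (edgeR adjusted p = 3.69e-04), but not with the replicate number as a block (-2.31, edgeR adjusted p = 0.0945), and in replicate 3 alone it was -0.28. Acta1, the skeletal muscle actin, was near its limit of detection, with 16 reads in all in 3D and 45 in 2D. Its call (-1.93 ± 0.76, edgeR adjusted p = 0.0359) was lost without 3D replicate 3, at -1.27, without 2D replicate 1, at -1.91, and without 2D replicate 2, at -1.51, and it was not made without the filter on low counts (edgeR adjusted p = 0.0552) or by DESeq2 (adjusted p = 0.0524). Desmin (Des), the intermediate filament of muscle, was not called, with a log2 fold change of -1.03 and a 95% interval from -2.12 to 0.06; without 3D replicate 3 it was called, at -1.55. Actc1, the cardiac actin, had 0, 1 and 13 reads in 3D and 0, 0 and 15 in 2D, and was not tested.

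Mylk was the muscle isoform that went the other way. It encodes the kinase that phosphorylates the regulatory light chain of myosin II, and had 33.7, 35.9 and 10.6 CPM in 3D, against 10.8, 9.70 and 2.35 CPM in 2D. Both groups had a low replicate 3, so that the ranges overlapped although each 3D library lay above the 2D library of the same number. The difference was 1.84 ± 0.40 on the log2 scale (edgeR adjusted p = 5.58e-04). In a fit of the 3D and 2D libraries alone, without a block, the adjusted p was 0.0842.

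**Figure D1:**
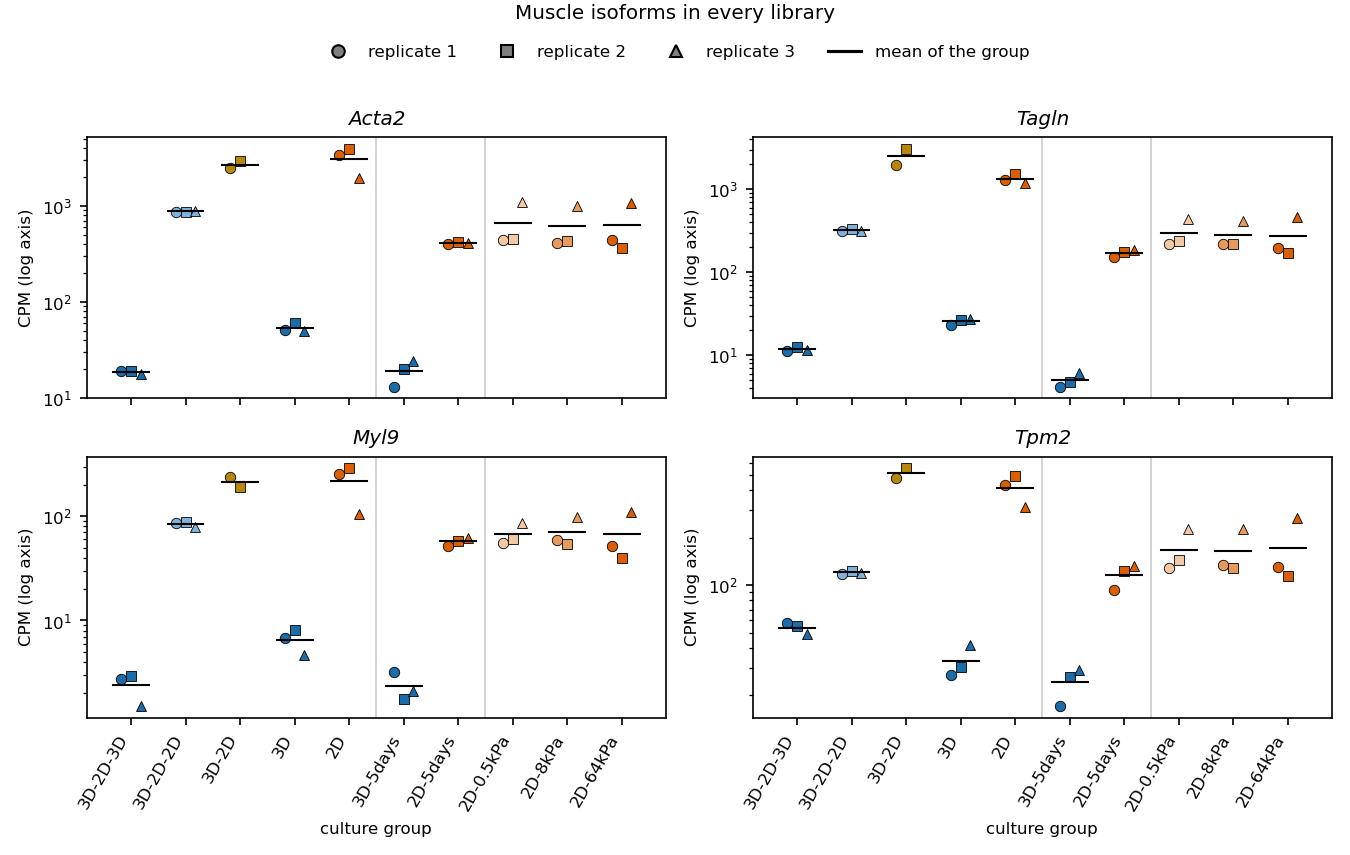
Levels of the muscle isoforms Acta2, Tagln, Myl9 and Tpm2 in CPM, on a log axis, for every library of the 10 groups (symbols, by replicate number) with the group mean (line). In each gene the libraries of 3D, 3D-2D-3D and 3D-5days lie below those of 2D, 3D-2D-2D and 2D-5days; Acta2 is at 49.5 to 60.5 CPM in 3D and 1955 to 3876 CPM in 2D.

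All 16 cytoplasmic genes were called lower in 3D, with log2 fold changes between -3.58 and -0.57. Actb, the main cytoplasmic actin together with Actg1, had 2497, 2121 and 873 CPM in 3D, against 4149, 4580 and 5695 CPM in 2D. Here replicate 3 was the lowest of 3D and the highest of 2D. Actb changed by -1.39 ± 0.25 (edgeR adjusted p = 6.42e-05), with -1.49 and an adjusted p of 0.0778 with the replicate block. Actg1 had 1919, 1697 and 1268 CPM in 3D, against 3809, 4303 and 4952 CPM in 2D (-1.42 ± 0.18). Myh9, the heavy chain of non-muscle myosin IIA, had 1113, 1074 and 1113 CPM in 3D, against 3046, 3029 and 3250 CPM in 2D (-1.50 ± 0.20), with little spread in either group.

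The cytoplasmic genes that changed most were Cnn2, a calponin of many cell types (-3.58 ± 0.16), the alpha-actinin Actn1, which crosslinks filaments (-2.56 ± 0.16), the tropomyosin Tpm4 (-2.49 ± 0.13) and the light chain Myl12a (-1.93 ± 0.12). Cnn2 had 63.9, 61.6 and 59.0 CPM in 3D, against 682, 754 and 775 CPM in 2D. The smallest changes were in Cnn3 (-0.57 ± 0.09), the non-muscle myosin IIB chain Myh10 (-0.60 ± 0.18), cofilin (Cfl1, which severs filaments, -0.62 ± 0.16), profilin (Pfn1, which feeds monomers to growing ends, -0.70 ± 0.14) and Tpm3 (-0.87 ± 0.17). With the replicate block the adjusted p of Myh10 was 0.158, that of Cfl1 0.105 and that of Pfn1 0.0989; Pfn1 was also at 0.0520 in a fit of these groups alone, without the block. Myh10 was also not called without 3D replicate 1 (-0.45, edgeR adjusted p = 0.0629) or without 3D replicate 2 (-0.48, edgeR adjusted p = 0.0548), while without 3D replicate 3 it was -0.92. Myl12b, a light chain gene nearly identical to Myl12a that was not in the list, had a log2 fold change of 0.07 ± 0.08. Reads shared by such near copies, and by the actin genes and their pseudogenes, may have been split or dropped by the counting.

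**Figure D2:**
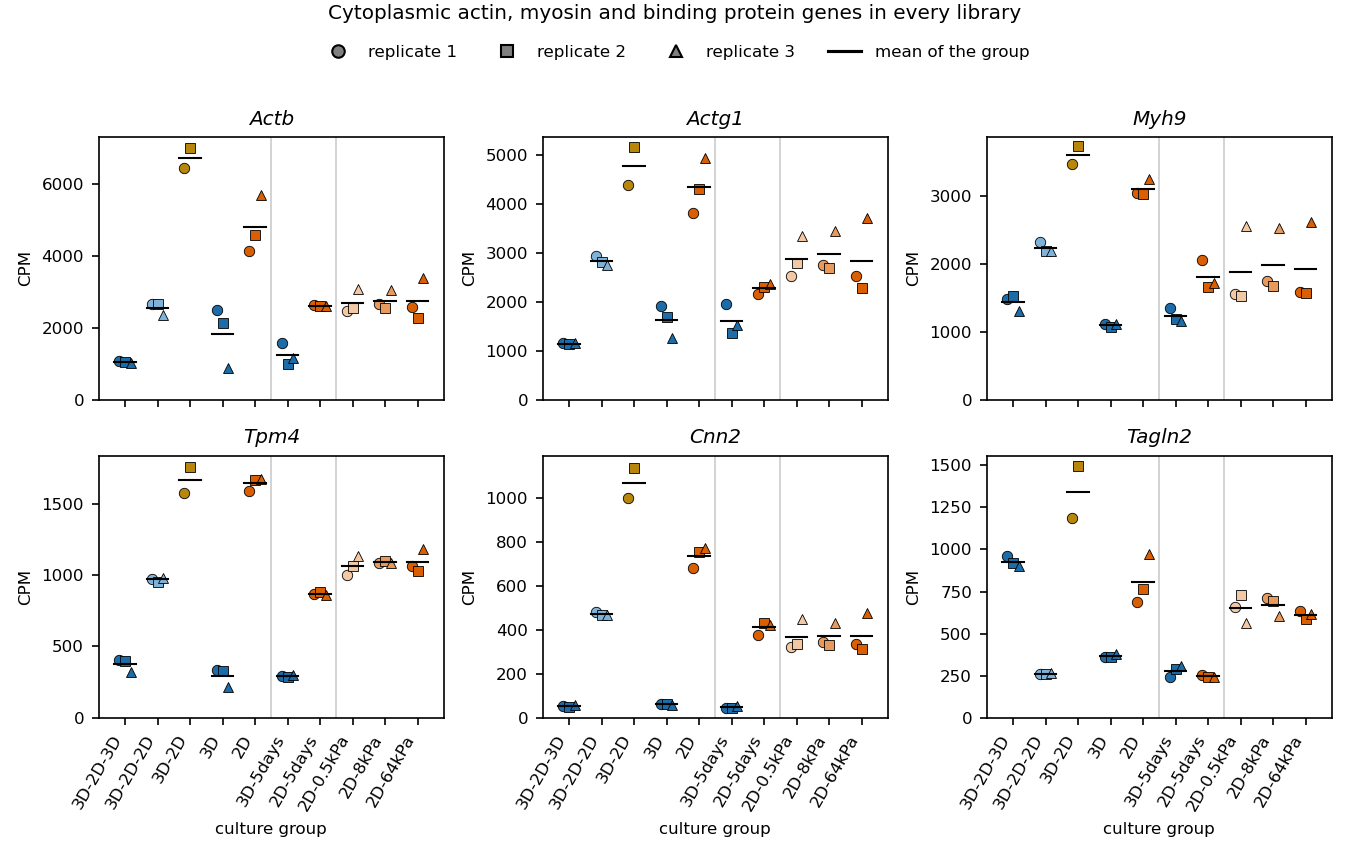
Levels of cytoplasmic actin, myosin and binding protein genes in CPM for every library of the 10 groups, by replicate number, with the group mean as a line; the axes start at 0. Cnn2 shows the widest separation, at 59.0 to 63.9 CPM in 3D and 682 to 775 CPM in 2D, and Tagln2, of the genes drawn, is the one that is higher in 3D-2D-3D than in 3D-2D-2D.

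Of the LIM, Z-disc and anchoring genes, 7 of 8 were called lower in 3D. Sorbs2, an adaptor of stress fibres and Z-discs, had 4.47, 3.49 and 2.85 CPM in 3D, against 39.4, 33.8 and 26.1 CPM in 2D (-3.20 ± 0.36, edgeR adjusted p = 2.28e-07). Fhl2, a LIM-domain-only protein that moves between focal adhesions and the nucleus, had 22.1, 26.8 and 24.5 CPM in 3D, against 224, 252 and 166 CPM in 2D (-3.12 ± 0.24). Both genes were separate between the groups in every library. Fhl1, its relative, had 77.1, 89.5 and 98.3 CPM in 3D, against 239, 272 and 393 CPM in 2D (-1.77 ± 0.29). Pdlim5, Pdlim7 and filamin C (Flnc) changed by between -1.34 and -1.22. Synpo2, an actin-bundling protein of the Z-disc, had 4.16, 4.15 and 3.09 CPM in 3D, against 13.3, 12.5 and 3.28 CPM in 2D, so that replicate 3 of 2D lay among the 3D libraries. It was called at -1.34 ± 0.33, but its adjusted p was 0.0933 with the block, and replicate 3 alone gave -0.07. Pdlim3, a PDZ and LIM protein that binds alpha-actinin, was the exception, with 79.02, 89.0 and 42.8 CPM in 3D, against 23.1, 21.5 and 0.392 CPM in 2D. All 3D libraries were above all 2D libraries, but the difference was much wider in replicate 3. The log2 fold change of 2.26 ± 0.90 (edgeR adjusted p = 0.0390) was not called with the block (3.05, edgeR adjusted p = 0.112), in a fit of these groups alone (edgeR adjusted p = 0.167), without the filter (edgeR adjusted p = 0.0620), nor without 3D replicate 1 (2.16), 3D replicate 2 (2.06), 2D replicate 2 (2.65) or 2D replicate 3 (1.65). Pdlim3 (chromosome 8, 45885487 to 45919635) and Sorbs2 (chromosome 8, 45507788 to 45827906) are neighbours on mm10 and differed in direction here.

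Srf itself had 63.6, 54.3 and 34.3 CPM in 3D, against 116, 114 and 139 CPM in 2D, a log2 fold change of -1.28 ± 0.18 (edgeR adjusted p = 4.09e-06). Mkl1 had 63.3, 55.4 and 53.9 CPM in 3D, against 83.8, 96.1 and 102 CPM in 2D (-0.71 ± 0.11). Mkl2 was not called: it had 84.3, 72.4 and 64.8 CPM in 3D, against 60.2, 54.7 and 64.8 CPM in 2D, with a 95% interval of its log2 fold change from -0.05 to 0.65. The groups met at replicate 3, and scaling by library totals alone brought Mkl2 to a call, at 0.42. Myocd had 1, 2 and 0 reads in 3D and 2, 10 and 7 in 2D, a ratio of 0.120 with an exact 95% interval of 0.0227 to 0.407 that covers counting error only, and was not tested.

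Of 48 other genes of the actin pathway, chosen with earlier results of these data known, 47 were tested; 32 were called lower and 4 higher in 3D, with a median log2 fold change of -0.53. The largest falls were in the formin Diap3 (Diaph3 in current nomenclature, -4.07 ± 0.40), the filament bundler Fscn1 (-2.45 ± 0.17) and vinculin (Vcl, of focal adhesions, -2.20 ± 0.24). The largest rises were in Tmod1, which caps pointed ends of filaments (2.28 ± 0.41), Evl, of the family that protects growing ends (0.79 ± 0.24), and the small GTPase Rhob (0.71 ± 0.11); in replicate 3 alone Evl was at -0.17. The summed level of 12 mural cell markers, which mark the other cells of the heart with high smooth muscle isoforms, was 633 to 920 CPM in 3D, against 377 to 790 CPM in 2D, with 3 of 10 tested called higher and 2 lower; of the defining markers, Rgs5 was between 2.01 and 2.13 CPM in 3D, against 0.357 to 1.34 CPM in 2D. Higd1b was at 0 in every library of both groups. The summed level was thus carried by genes of the list other than Rgs5 and Higd1b, and is not read here as an amount of mural cells. The endothelial markers summed to 289 to 402 CPM in 3D, against 504 to 517 CPM in 2D. Of the 9, 2 were called higher in 3D and 1 lower, with a median log2 fold change of 0.77. The counts of mural and endothelial markers stand beside 26.7% of all genes tested called higher in 3D and 27.3% called lower. In replicate 3 alone, a single library of each group, the log2 fold changes were -5.29 for Acta2 and -5.41 for Tagln. The part of these markers in the differences was not tested.

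**Figure D3:**
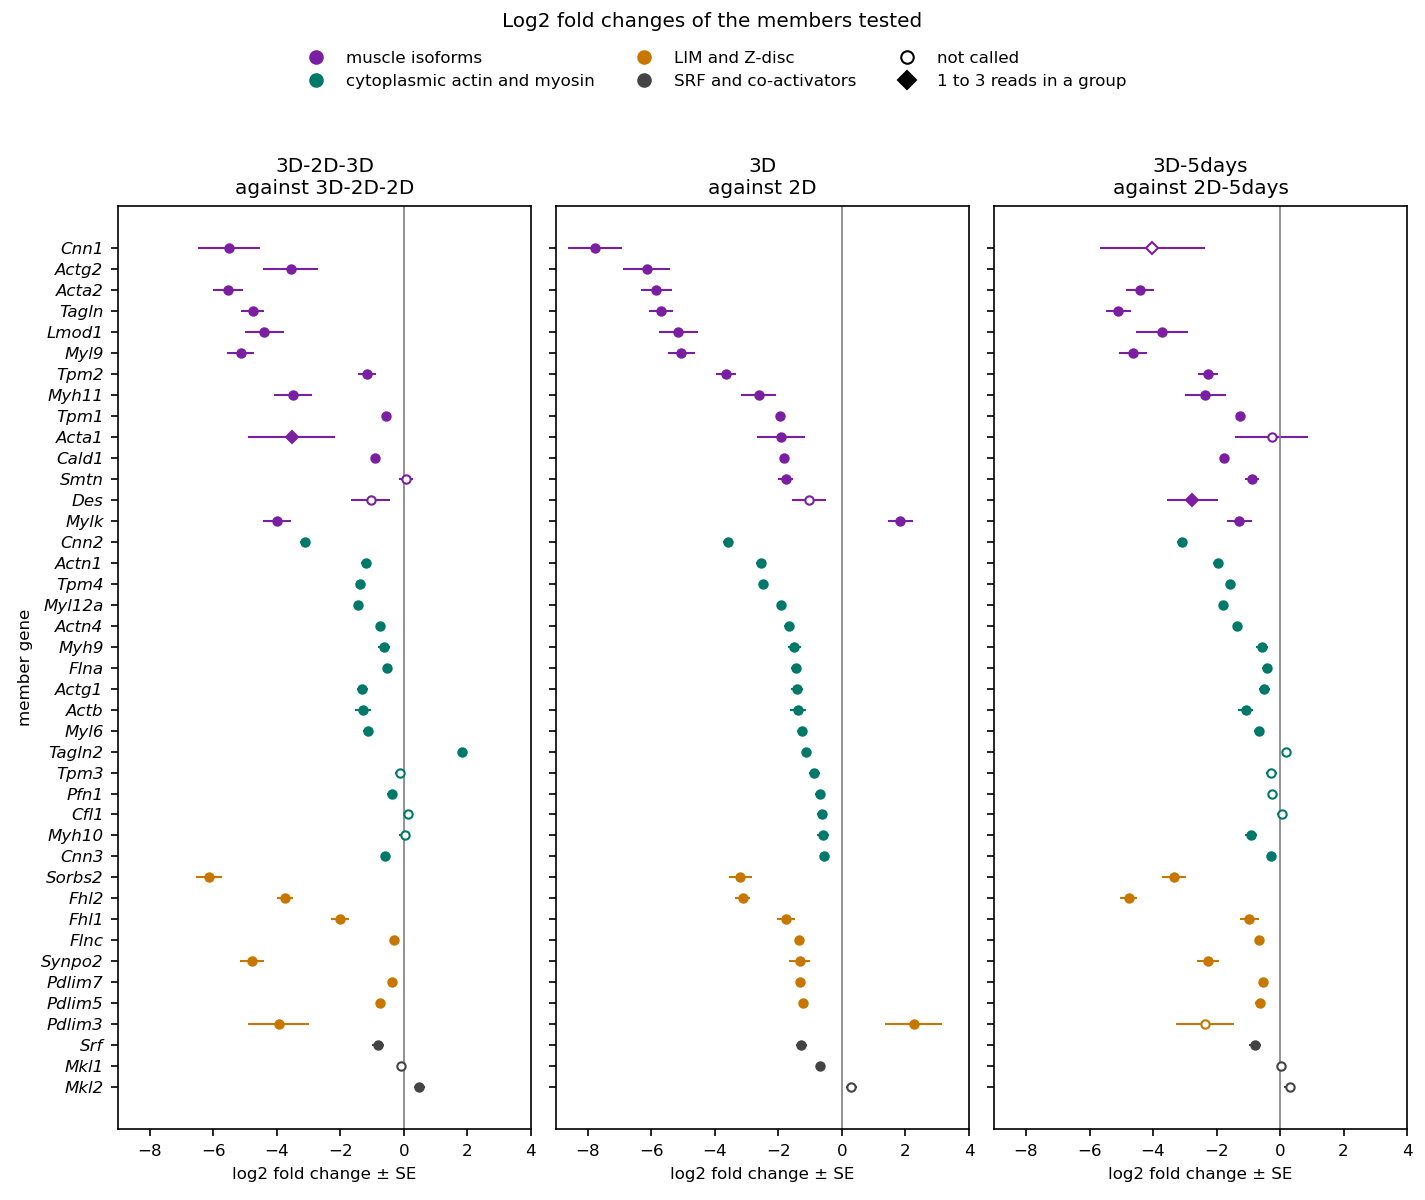
Log2 fold changes ± standard error of the tested genes in 3 comparisons, coloured by role and sorted within a role by 3D against 2D. Filled symbols were called by edgeR, open ones were not, and diamonds mark genes with 1 to 3 reads in a group, whose fitted values depend on the prior count; Actg2 at 5 days, with no read in 3D-5days, is left out. Most symbols lie below 0, with Mylk and Pdlim3 above it in 3D against 2D and Tagln2 above it in 3D-2D-3D against 3D-2D-2D.

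The next comparison followed cells moved out of 3D: 3D-2D was set against 3D and against 2D. After the move the genes were again high. Against 3D, 35 of 41 were called higher and 3 lower, where 28.8% of all genes tested were called higher and 27.7% lower, with a median of 1.87 over the 41 genes and -0.02 over all genes. Against 2D, 7 were called higher and 3 lower, beside 6.85% and 7.54% of all genes, with a median of 0.18. Both comparisons share the 3D-2D libraries, and the first shares its 3D libraries with the comparison above.

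Acta2 had 2476 and 2887 CPM in 3D-2D, against 49.5 to 60.5 CPM in 3D (5.65 ± 0.48, edgeR adjusted p = 5.13e-09) and 1955 to 3876 CPM in 2D. The 3D-2D libraries lay within the range of 2D, with a 95% interval of the log2 fold change from -1.09 to 0.70. Tagln had 1935 and 3035 CPM in 3D-2D, against 23.1 to 27.5 CPM in 3D (6.59 ± 0.40) and 1185 to 1508 CPM in 2D, where the change of 0.90 was not called (edgeR adjusted p = 0.0766, 95% interval 0.20 to 1.60). Myl9, Cnn1 and Actg2 were higher than in 3D by 5.05 ± 0.43, 6.66 ± 0.86 and 6.13 ± 0.76 on the log2 scale. Of the cytoplasmic genes, 15 of 16 were called higher than in 3D, Actb by 1.88 ± 0.27, Actg1 by 1.55 ± 0.19 and Cnn2 by 4.12 ± 0.17. Myh10, at 273 and 267 CPM in 3D-2D against 183, 194 and 324 CPM in 3D, was the one not called (0.21, 95% interval -0.21 to 0.62); without 3D replicate 3 it was called, at 0.52. Srf reached 172 and 199 CPM in 3D-2D, against 34.3 to 63.6 CPM in 3D (1.87 ± 0.20), and Mkl1 changed by 1.06 ± 0.12.

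The 3 genes called lower in 3D-2D than in 3D were Pdlim3, Mylk and Mkl2. Pdlim3 had 0.710 and 0.552 CPM in 3D-2D, against 42.8 to 89.0 CPM in 3D, a log2 fold change of -6.77 ± 1.43 (edgeR adjusted p = 4.27e-04). Mylk had 2.34 and 1.86 CPM in 3D-2D, against 10.6 to 35.9 CPM in 3D (-3.66 ± 0.52). In both genes every 3D-2D library lay below every 3D library. Mkl2 changed by -0.53 ± 0.19, a call lost without 3D-2D replicate 1 (-0.60), 3D-2D replicate 2 (-0.46) or 3D replicate 1 (-0.43). Synpo2 (95% interval -1.49 to 0.09) and Des (-0.62 to 1.79) were not called. Myh11 lost its call of 1.86 ± 0.58 without 3D-2D replicate 1 (1.76, edgeR adjusted p = 0.0524), and Acta1, called at 3.19 ± 0.77, was not called in a fit of these groups alone (edgeR adjusted p = 0.0523). Of the 47 other pathway genes, 31 were called higher than in 3D and 4 lower; the largest rises were in Fscn1 (2.76 ± 0.18), Diap3 (2.69 ± 0.41) and palladin (Palld, 2.62 ± 0.16), and the largest falls in Tmod1 (-2.71 ± 0.48), Evl (-1.07 ± 0.27) and Myl12b (-0.60 ± 0.09). The macrophage markers summed to 551 to 734 CPM in 3D-2D, against 194 to 7412 CPM in 3D, with 7 of 12 called lower and 0 higher. The mural markers summed to 334 to 348 CPM in 3D-2D, against 633 to 920 CPM in 3D, with 5 of 10 tested called lower and 1 higher, and with Kcnj8 and Higd1b at 0 in 3D-2D. Of the 9 endothelial markers 7 were called lower in 3D-2D than in 3D and 1 higher, with a median log2 fold change of -2.50 and Cldn5 at 0 in 3D-2D, while their summed level was 452 to 466 CPM in 3D-2D, against 289 to 402 CPM in 3D. The fibroblast markers summed to 19857 to 20015 CPM in 3D-2D, against 23828 to 38438 CPM in 3D, with 6 of 11 called lower and 1 higher. The part of these markers in the differences was not tested.

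Against 2D, the genes called higher in 3D-2D were Tpm1 (0.74 ± 0.13), Tagln2 (0.73 ± 0.13), Cnn2 (0.54 ± 0.16), Fhl1 (1.16 ± 0.31), Pdlim5 (0.59 ± 0.14), Flnc (0.46 ± 0.12) and Srf (0.59 ± 0.20), and those called lower Pdlim3 (-4.51 ± 1.37), Synpo2 (-2.03 ± 0.39) and Mylk (-1.82 ± 0.49). None of the 10 calls held in every fit that left out 1 library: without 3D-2D replicate 2 no member was called, and without 3D-2D replicate 1, 2D replicate 1, 2D replicate 2 and 2D replicate 3 the numbers called were 5, 4, 5 and 12. In a fit of these groups alone none was called. The number of all genes called also varied widely between these fits, as given in the last section, so that the change is not shown to be particular to these members. Of the 47 other pathway genes 5 were called higher and 4 lower, beside 6.85% and 7.54% of all genes, with a median log2 fold change of 0.07. Those higher were led by Rhob (0.76 ± 0.12), Limk1 (0.56 ± 0.18) and Palld (0.50 ± 0.15). Those lower were led by Diap3 (-1.38 ± 0.41), Daam1 (-0.78 ± 0.15) and Ssh1 (-0.54 ± 0.17).

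A second move was studied by setting 3D-2D-3D, cells returned to 3D, against 3D-2D-2D, cells that stayed in 2D, and against 3D-2D. Cells returned to 3D again had low levels. Against 3D-2D-2D, 33 of 41 genes were called lower and 2 higher, where 20.6% of all genes tested were called lower and 19.8% higher. Against 3D-2D, 36 were called lower and 1 higher, beside 25% and 24.2%. The medians against 3D-2D-2D were -3.55 over the muscle isoforms, -0.69 over the cytoplasmic genes, -2.88 over the LIM and Z-disc genes and -0.09 over Srf, Mkl1 and Mkl2, with -0.01 over all genes. Scaling by library totals alone moved the split of all genes called against 3D-2D-2D to 4747 higher and 1893 lower, from 2782 higher and 2895 lower, and left 28 of the 41 genes called lower.

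Acta2 had 19.1, 19.0 and 17.8 CPM in 3D-2D-3D, against 865, 870 and 879 CPM in 3D-2D-2D, with hardly any spread in either group. Against 3D-2D-2D the change was -5.55 ± 0.47 (edgeR adjusted p = 8.15e-09), and -7.17 ± 0.52 against 3D-2D. Acta2 in the 3D-2D-2D libraries also lay below the 2476 and 2887 CPM of 3D-2D, a difference that was not tested. Tagln had 11.3, 12.7 and 11.5 CPM in 3D-2D-3D, against 318, 331 and 314 CPM in 3D-2D-2D (-4.77 ± 0.36). Myl9 had 2.76, 2.91 and 1.52 CPM in 3D-2D-3D, against 85.3, 87.9 and 78.5 CPM in 3D-2D-2D (-5.14 ± 0.43). All 3 genes separated the groups in every library. Cnn1 (-5.51 ± 0.98), Lmod1 (-4.39 ± 0.62), Actg2 (-3.56 ± 0.87) and Myh11 (-3.50 ± 0.60) were lower as well. Acta1 had 1 read in all in 3D-2D-3D and 7 in 3D-2D-2D, a ratio of 0.0538 with an exact 95% interval of 0.00119 to 0.419; against the 102 reads of 3D-2D the ratio was 0.00522 (0.000131 to 0.0298), both intervals covering counting error only. The call of Acta1 against 3D-2D-2D was lost without 3D-2D-3D replicate 2 (-3.22), 3D-2D-3D replicate 3 (-3.07), 3D-2D-2D replicate 1 (-3.06) or 3D-2D-2D replicate 2 (-3.50). Des was not called against 3D-2D-2D (-1.05, 95% interval -2.34 to 0.24) or against 3D-2D (-1.42, 95% interval -2.67 to -0.17; called at -1.89 without 3D-2D-3D replicate 3, and at -1.43 in a fit of these groups alone, edgeR adjusted p = 0.0428).

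The tropomyosins and Smtn were among the muscle isoforms with small log2 values here. Tpm1 had 361, 352 and 324 CPM in 3D-2D-3D, against 510, 501 and 526 CPM in 3D-2D-2D (-0.57 ± 0.11), and Tpm2 had 57.5, 55.4 and 48.7 CPM in 3D-2D-3D, against 118, 123 and 120 CPM in 3D-2D-2D (-1.16 ± 0.29). Smtn, at 95.7, 96.8 and 125 CPM in 3D-2D-3D against 105, 97.6 and 99.8 CPM in 3D-2D-2D, was not called (0.07, 95% interval -0.41 to 0.54). These values and those of 3D against 2D are side by side only: whether they differ was not tested.

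Mylk, which had been higher in 3D than in 2D, was lower here, with 2.46, 2.54 and 2.35 CPM in 3D-2D-3D, against 39.6, 37.7 and 40.1 CPM in 3D-2D-2D (-3.99 ± 0.44, edgeR adjusted p = 2.72e-07). Against 3D-2D its 95% interval ran from -0.79 to 1.23. Sorbs2 showed the largest change of all 41 genes in this comparison, with 1.74, 1.82 and 1.61 CPM in 3D-2D-3D, against 119, 115 and 131 CPM in 3D-2D-2D (-6.14 ± 0.41, edgeR adjusted p = 2.41e-10). Synpo2 had 0.716, 0.817 and 0.419 CPM in 3D-2D-3D, against 18.7, 16.0 and 19.1 CPM in 3D-2D-2D (-4.79 ± 0.39). In all 3 genes the 3D-2D-2D libraries stood above those of most other groups. Pdlim3 had 10.2, 9.08 and 3.16 CPM in 3D-2D-3D, against 112, 116 and 117 CPM in 3D-2D-2D (-3.95 ± 0.96), but was higher than the 0.710 and 0.552 CPM of 3D-2D (3.53 ± 1.35, edgeR adjusted p = 0.0345), a call lost without 3D-2D-3D replicate 1 (3.21), 3D-2D-3D replicate 2 (3.35), 3D-2D replicate 1 (3.71) or 3D-2D replicate 2 (3.37). Fhl2 changed by -3.75 ± 0.25 and Fhl1 by -2.01 ± 0.29 against 3D-2D-2D.

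Of the 16 cytoplasmic genes, 12 were called lower and 1 higher than in 3D-2D-2D. Actb had 1087, 1039 and 1016 CPM in 3D-2D-3D, against 2670, 2673 and 2353 CPM in 3D-2D-2D (-1.29 ± 0.25), and Actg1 had 1156, 1126 and 1157 CPM in 3D-2D-3D, against 2940, 2817 and 2760 CPM in 3D-2D-2D (-1.31 ± 0.18). The gene called higher was Tagln2, the transgelin of non-muscle cells, with 958, 920 and 902 CPM in 3D-2D-3D, against 259, 258 and 267 CPM in 3D-2D-2D (1.83 ± 0.12, edgeR adjusted p = 1.61e-10). It moved against its muscle counterpart Tagln in the same libraries, yet was lower than in 3D-2D, by -0.53 ± 0.13, a call lost without 3D-2D replicate 2 (-0.36). Tpm3, Cfl1 and Myh10 were not called against 3D-2D-2D, with 95% intervals of -0.46 to 0.22, -0.19 to 0.45 and -0.36 to 0.40, although Cfl1 was higher in each 3D-2D-3D library (613 to 629 CPM) than in each 3D-2D-2D library (551 to 594 CPM). The smaller calls depended on single libraries or on the scaling. With library totals alone Myh9 was at -0.41, Pfn1 at -0.16, Flna at -0.30, Pdlim7 at -0.13 and Flnc at -0.08, none of them called. Pfn1 (-0.39 ± 0.14) and Flnc (-0.31 ± 0.11) were not called without any 1 of 5 of the 6 libraries, 3D-2D-2D replicate 3 being the exception, with values of -0.39 to -0.36 and -0.31 to -0.28. Myh9 was not called without 3D-2D-3D replicate 3 (-0.56), and Pdlim7 not without 3D-2D-3D replicate 2 (-0.36) or 3 (-0.31). Smtn lost its call against 3D-2D without 3D-2D-3D replicate 1 (-0.68), 3D-2D-3D replicate 2 (-0.69) or 3D-2D replicate 2 (-0.66).

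Srf had 39.9, 38.7 and 43.3 CPM in 3D-2D-3D, against 73.9, 69.3 and 71.3 CPM in 3D-2D-2D (-0.82 ± 0.18), and differed from 3D-2D by -2.19 ± 0.20. Mkl1 was not called against 3D-2D-2D (95% interval -0.32 to 0.15) and changed by -1.09 ± 0.12 against 3D-2D. Mkl2, at 63.6, 67.5 and 55.2 CPM in 3D-2D-3D against 44.5, 42.3 and 46.6 CPM in 3D-2D-2D, was called higher (0.48 ± 0.17, edgeR adjusted p = 0.0293), but not without 3D-2D-3D replicate 1 (0.48), 3D-2D-3D replicate 2 (0.43), 3D-2D-2D replicate 1 (0.48) or 3D-2D-2D replicate 2 (0.45). Of the 47 other pathway genes, 12 were called lower and 7 higher than in 3D-2D-2D, beside 20.6% and 19.8% of all genes tested. Their median log2 fold change was -0.04, beside -0.01 over all genes, so that the list as a whole stayed near all genes. Those lower were led by the LIM protein Csrp2 (-2.61 ± 0.46), Diap3 (-2.17 ± 0.41) and Palld (-2.16 ± 0.15). Those higher were led by Tmod1 (2.13 ± 0.43), the formin Fmnl3 (1.20 ± 0.12) and Rhob (0.86 ± 0.11). Against 3D-2D, 29 were called lower and 2 higher; Diap3 (-3.93 ± 0.43), Palld (-3.18 ± 0.16) and zyxin (Zyx, of focal adhesions, -2.18 ± 0.22) fell most, and Tmod1 (2.45 ± 0.48) and Fmnl3 (1.22 ± 0.14) rose. Markers of other cells also moved: the mural markers summed to 603 to 672 CPM in 3D-2D-3D, against 1769 to 1856 CPM in 3D-2D-2D, with 6 of 10 tested called lower and 1 higher, and Higd1b at 0 in every library of both groups. Of the defining marker Rgs5 there were 0.716 to 3.13 CPM in 3D-2D-3D, against 4.29 to 4.80 CPM in 3D-2D-2D. The fibroblast markers summed to 18765 to 26063 CPM in 3D-2D-3D, against 69814 to 75948 CPM in 3D-2D-2D, with 5 of 11 called lower and 0 higher. The endothelial markers summed to 306 to 410 CPM in 3D-2D-3D, against 667 to 715 CPM in 3D-2D-2D, with 4 of 9 called lower and 0 higher. The cardiomyocyte markers summed to 34.8, 34.5 and 166 CPM in replicates 1, 2 and 3 of 3D-2D-3D, against 32.3 to 36.8 CPM in 3D-2D-2D, and none of the 8 tested was called. The part of these markers in the differences was not tested.

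**Figure D4:**
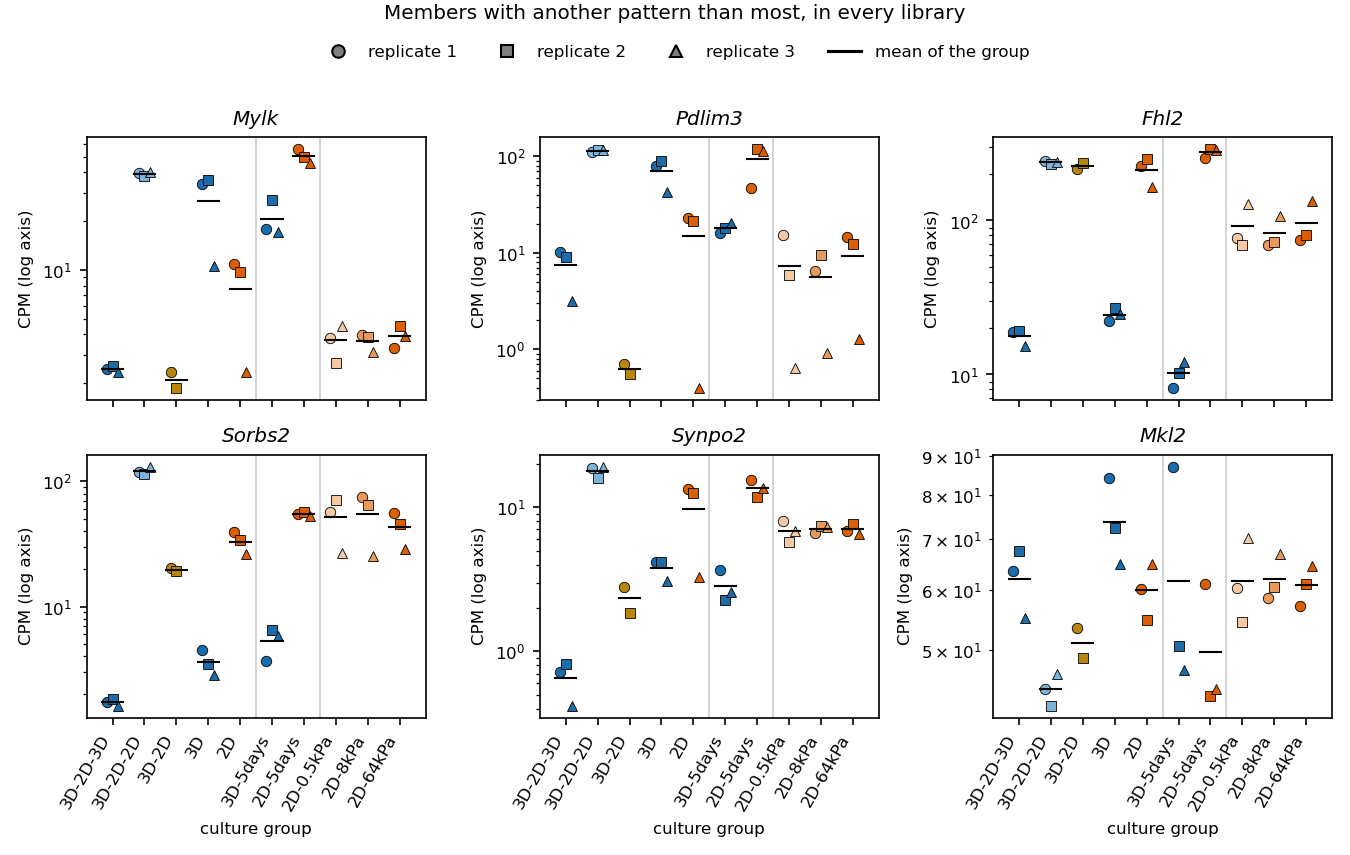
Levels in CPM, on a log axis, of Mylk, Pdlim3, Fhl2, Sorbs2, Synpo2 and Mkl2 in every library of the 10 groups, by replicate number, with the group mean as a line. Mylk and Pdlim3 are high in 3D (10.6 to 35.9 and 42.8 to 89.0 CPM) but low in 3D-2D-3D, and Sorbs2 spans 1.61 to 1.82 CPM in 3D-2D-3D and 115 to 131 CPM in 3D-2D-2D.

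The same arrangements were compared at 5 days. In 3D-5days, 31 of 41 genes were called lower than in 2D-5days and 0 higher. Of all genes tested, 17.5% were called lower and 14.9% higher. At an unadjusted p under 0.05, edgeR passed 34 of the 41, beside 5822 of the 14036 genes tested. DESeq2 called 33 of the 41 lower and 0 higher. Its own share over all genes is not given, and the edgeR shares do not stand in for it, so this count has no background here. Scaling by library totals alone moved the split of all genes called to 2912 higher and 1877 lower, from 2098 higher and 2450 lower, with 27 of the 41 called lower. The medians were -2.56 over the muscle isoforms, or -2.33 with Actg2 set to its bound, -0.61 over the cytoplasmic genes, -1.62 over the LIM and Z-disc genes and 0.04 over Srf, Mkl1 and Mkl2, beside 0.00 over all genes.

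Acta2 had 13.1, 19.9 and 24.4 CPM in 3D-5days, against 399, 419 and 410 CPM in 2D-5days (-4.42 ± 0.45, edgeR adjusted p = 1.30e-07). Tagln had 4.23, 4.84 and 6.07 CPM in 3D-5days, against 153, 176 and 187 CPM in 2D-5days (-5.09 ± 0.38). Myl9 had 3.23, 1.75 and 2.09 CPM in 3D-5days, against 52.2, 57.7 and 62.4 CPM in 2D-5days (-4.63 ± 0.45). The groups did not overlap in these genes, and the levels in 2D-5days were below those of the 2D cultures with no stated time, a comparison that was not tested. Actg2 had no read in any 3D-5days library and 12 in 2D-5days. With 3 reads over the 3D-5days group as the floor and the 12 reads taken as exact, it was 4.95-fold lower or more. This bound does not cover counting error in the 12 reads. Cnn1 had 1 read in 3D-5days and 16 in 2D-5days, a ratio of 0.0505 (exact 95% interval 0.00121 to 0.325), and Des had 3 reads in 3D-5days and 18 in 2D-5days, a ratio of 0.135 (0.0254 to 0.462), both for counting error only. Neither Actg2 nor Cnn1 was called by edgeR, with adjusted p-values of 0.0520 and 0.0675, while DESeq2 called both. Des was called, but not without 3D-5days replicate 2 (-2.10). Myh11 changed by -2.35 ± 0.64, and by -3.55 without 3D-5days replicate 2. Acta1 was not called (-0.26, 95% interval -2.64 to 2.12).

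Mylk had 17.8, 27.1 and 17.1 CPM in 3D-5days, against 55.6, 49.6 and 45.7 CPM in 2D-5days. All 3D-5days libraries were lower, the reverse of 3D and 2D. Mylk changed by -1.28 ± 0.39 (edgeR adjusted p = 0.0144), a call lost without 3D-5days replicate 1 (-1.18) or replicate 3 (-1.16). Fhl2 had 8.12, 10.2 and 12.1 CPM in 3D-5days, against 254, 290 and 289 CPM in 2D-5days (-4.77 ± 0.27, edgeR adjusted p = 9.86e-12), and Sorbs2 had 3.67, 6.51 and 5.87 CPM in 3D-5days, against 54.6, 57.2 and 52.9 CPM in 2D-5days (-3.35 ± 0.37). Pdlim3 had 16.0, 17.9 and 20.3 CPM in 3D-5days, against 46.9, 118 and 114 CPM in 2D-5days; it was not called (-2.36 ± 0.91, edgeR adjusted p = 0.0507) except in a fit of these groups alone, with the replicate block (-2.25, edgeR adjusted p = 3.26e-04) or without it (-2.32, edgeR adjusted p = 0.00365), or without 2D-5days replicate 1 (-2.68).

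The cytoplasmic genes had 12 of 16 called lower in 3D-5days. Actb had 1573, 987 and 1147 CPM in 3D-5days, against 2630, 2615 and 2603 CPM in 2D-5days (-1.08 ± 0.25), and Cnn2 had 45.6, 45.4 and 53.6 CPM in 3D-5days, against 378, 432 and 424 CPM in 2D-5days (-3.09 ± 0.15). Actg1 (-0.50 ± 0.18), Myh9 (-0.56 ± 0.19), Flna (-0.43 ± 0.14) and Cnn3 (-0.28 ± 0.09) were smaller calls, none of which held under library totals. Actg1 lost its call without 3D-5days replicate 2 (-0.36), 3D-5days replicate 3 (-0.46), 2D-5days replicate 2 (-0.47) or 2D-5days replicate 3 (-0.45), and Myh9 without 3D-5days replicate 2 (-0.51), 3D-5days replicate 3 (-0.51) or 2D-5days replicate 1 (-0.45). Flna lost it without 3D-5days replicate 2 (-0.40), 3D-5days replicate 3 (-0.34) or 2D-5days replicate 1 (-0.39), and Cnn3 with the replicate block (-0.24, edgeR adjusted p = 0.0819) and without 3D-5days replicate 1 (-0.22), 3D-5days replicate 2 (-0.26), 2D-5days replicate 1 (-0.24) or 2D-5days replicate 2 (-0.26). Tagln2, Cfl1, Pfn1 and Tpm3 were not called, with 95% intervals of -0.06 to 0.42, -0.28 to 0.37, -0.53 to 0.05 and -0.61 to 0.08. Srf changed by -0.78 ± 0.18. Mkl1 (95% interval -0.19 to 0.28) and Mkl2 (-0.05 to 0.67) were not called, Mkl2 except with the replicate block (0.31, edgeR adjusted p = 0.0343) and without 2D-5days replicate 1 (0.48). Of the 47 other pathway genes 22 were called lower and 7 higher, beside 17.5% and 14.9% of all genes tested, with a median log2 fold change of -0.32. Vcl (-2.70 ± 0.25), Fscn1 (-2.52 ± 0.17) and Diap3 (-2.47 ± 0.48) fell most. Tmod1 (2.52 ± 0.42), gelsolin (Gsn, which severs filaments, 0.85 ± 0.26) and the formin Diap1 (Diaph1, 0.84 ± 0.21) rose most. The mural markers summed to 554 to 819 CPM in 3D-5days, against 1448 to 1696 CPM in 2D-5days, with Higd1b at 0 in every library of both groups. Of the 10 tested, 2 were called higher and 2 lower, with a median log2 fold change of 0.23. Rgs5 was between 2.42 and 2.69 CPM in 3D-5days, against 0.900 to 2.96 CPM in 2D-5days. The macrophage markers summed to 2892 to 10660 CPM in 3D-5days, against 661 to 2677 CPM in 2D-5days, with 2 of 12 called higher and 0 lower. For the mural and macrophage markers the shares of all genes tested to set beside these counts were 14.9% higher and 17.5% lower. Of the 9 endothelial markers 6 were called higher in 3D-5days and 1, Eng, lower (-1.14 ± 0.18), with a median log2 fold change of 2.34, while their summed level was 261 to 451 CPM in 3D-5days, against 524 to 756 CPM in 2D-5days. The part of these markers in the differences was not tested.

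A difference of differences asked whether time alters the response: the log2 fold change at 5 days minus the one of 3D against 2D. It was called for 17 of 41 genes, 14 upward and 3 downward, where 12.3% of all genes tested were called upward and 13.2% downward. All 14 had been lower in 3D than in 2D, a difference that is itself a term of this test. The shift was toward a smaller fall at 5 days, or toward none called there, as in Tagln2, Cfl1 and Mkl1. Tagln2 had 244, 287 and 309 CPM in 3D-5days, against 256, 242 and 243 CPM in 2D-5days. Of the 14, 8 were cytoplasmic genes, among them Tagln2 (1.32 ± 0.17, edgeR adjusted p = 8.44e-06), Flna (1.03 ± 0.20), Myh9 (0.94 ± 0.27), Actg1 (0.92 ± 0.25) and Tpm4 (0.92 ± 0.17). The muscle isoforms Acta2 (1.43, 95% interval 0.27 to 2.58), Tagln (0.60, -0.37 to 1.58) and Myl9 (0.43, -0.79 to 1.65) were not called. Downward were Mylk (-3.12 ± 0.56, edgeR adjusted p = 3.63e-04), Fhl2 (-1.65 ± 0.33) and Pdlim3 (-4.62 ± 1.28). With the replicate block Myl6, Actn1, Cfl1, Tpm1, Actg1 and Pdlim7 were no longer called, at adjusted p-values of 0.0718, 0.0522, 0.101, 0.0606, 0.0654 and 0.0508, and Smtn, Acta2, Cnn2 and Fhl1 were. Of the upward calls, Tpm2 (1.38) was lost without 3D-5days replicate 3, at 1.22. Pdlim5 was lost without 2D replicate 3, 3D-5days replicate 1, or 2D-5days replicate 2 or 3, at 0.41 to 0.49. Cfl1 was lost without 3D replicate 3, 2D replicate 3, 3D-5days replicate 1, or 2D-5days replicate 2 or 3, at 0.54 to 0.63. Actn1 was lost without 3D replicate 1 or 2, 2D replicate 1 or 2, 3D-5days replicate 1, or 2D-5days replicate 2 or 3, at 0.52 to 0.62. Myl6 was lost without replicate 2 or 3 of 3D or of 2D, replicate 1 or 3 of 3D-5days, or any 2D-5days library, at 0.49 to 0.66. Of the 47 other pathway genes, 11 were called upward, led by Csrp2 (1.88 ± 0.62), Zyx (1.39 ± 0.28) and Lpp (1.15 ± 0.34), and 1 downward, Myl12b (-0.93 ± 0.12). The libraries with and without a stated time differ also in depth and in which replicate stands apart, which cannot be told apart from time.

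The substrates of 0.5, 8 and 64 kPa asked whether the stiffness under a 2D layer changes these genes. With no replicate block and this number of libraries, edgeR called none of the 41 genes in any of the 3 pairs. It called 0% of all genes tested, and DESeq2 likewise called none of the 41 genes. At an unadjusted p under 0.05, edgeR passed 0 of the 41 genes for 8 against 0.5 kPa, 0 for 64 against 0.5 kPa and 1 (Des) for 64 against 8 kPa, beside 82, 175 and 241 of all genes. Acta2 had 444, 446 and 1105 CPM at 0.5 kPa, 412, 427 and 988 CPM at 8 kPa and 441, 366 and 1070 CPM at 64 kPa. Replicate 3 was above the other libraries on every substrate, and by more than any difference between substrates. The 95% interval of the log2 fold change of Acta2 at 64 against 0.5 kPa was -0.89 to 0.71. This interval and those below come from the fit with no block, in which the offset of replicate 3 counts as spread. In replicates 1 and 2 alone the log2 fold change of Acta2 was -0.15, and in replicate 3 alone -0.04.

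Tagln had 217, 236 and 443 CPM at 0.5 kPa, 221, 219 and 415 CPM at 8 kPa and 195, 169 and 461 CPM at 64 kPa, with an interval at 64 against 0.5 kPa of -0.76 to 0.52. The intervals were narrower for cytoplasmic genes: -0.48 to 0.53 for Actb, -0.37 to 0.43 for Myh9 and -0.28 to 0.28 for Actn4. Over the 41 genes the log2 fold changes at 64 against 0.5 kPa had a median of -0.02 and ran from -0.77 to 0.48. Des at 64 against 8 kPa was at -1.20 ± 0.58, on 14 reads at 64 kPa and 37 at 8 kPa. Same-numbered substrate libraries were alike, and with the replicate number as a block 3 of the 41 genes were called at 64 against 8 kPa: Fhl1 (0.24, edgeR adjusted p = 0.0204), Pdlim3 (0.72, edgeR adjusted p = 0.0328) and Pdlim7 (-0.20, edgeR adjusted p = 0.0412), with 608 of all genes; no further member was called with the block in the other pairs. Actc1 had 0, 0 and 3 reads at 0.5 kPa, 0, 1 and 21 at 8 kPa and 0, 0 and 3 at 64 kPa, so that nearly all its reads came from replicate 3. Of the 47 other pathway genes none was called by edgeR in any pair, and at an unadjusted p under 0.05 the numbers were 0, 0 and 1.

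Within protein families, Acta2 among the actins and Tagln among the transgelins took smaller shares in the 3D arrangements. The shares below are of counts, not corrected for gene length, and are set side by side across groups as a description. Acta2 made up 1.65% ± 0.57 of the counts of the 6 actin genes in 3D, against 25.1% ± 8.36 in 2D (SD, n = 3 each), and 0.842% ± 0.0283 in 3D-2D-3D, against 13.9% ± 0.681 in 3D-2D-2D. At 5 days it was 0.706% ± 0.293 in 3D-5days, against 7.72% ± 0.121 in 2D-5days, and in 3D-2D it was 18.8% ± 0.402 (n = 2). Among the transgelins Tagln took 6.57% ± 0.486 of the counts in 3D, against 62.2% ± 6.30 in 2D, and 1.26% ± 0.0986 in 3D-2D-3D, against 55.1% ± 1.07 in 3D-2D-2D, Tagln2 holding the rest.

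Shares within the calponins and the tropomyosins were as follows. Of the calponin counts Cnn2 held 16.4% ± 1.16 in 3D, against 59.6% ± 4.49 in 2D, and Cnn3 83.6% ± 1.11 in 3D, against 37.7% ± 2.66 in 2D. The 3D-2D-3D and 3D-5days libraries were like 3D in this respect, with Cnn2 at 16.6% ± 2.86 in 3D-2D-3D, against 52.7% ± 0.739 in 3D-2D-2D, and at 13.4% ± 0.750 in 3D-5days, against 52.1% ± 2.93 in 2D-5days. Of the tropomyosin counts Tpm3 held 36.0% ± 3.29 in 3D, against 16.4% ± 2.34 in 2D, and Tpm4 33.5% ± 4.37 in 3D, against 47.0% ± 2.24 in 2D. Tpm1 and Tpm2, listed with the muscle isoforms, did not move together in these counts per gene. Tpm2 held 3.91% ± 1.40 in 3D, against 11.8% ± 2.16 in 2D, and 4.74% ± 0.130 in 3D-2D-3D, against 6.04% ± 0.153 in 3D-2D-2D. Tpm1 held 26.6% ± 6.11 in 3D, against 24.8% ± 2.40 in 2D, and 30.5% ± 0.102 in 3D-2D-3D, against 25.7% ± 0.401 in 3D-2D-2D, so that its share was the larger one in the cells returned to 3D. At 5 days Tpm1 held 21.3% ± 1.22 in 3D-5days, against 23.7% ± 1.39 in 2D-5days. Actb and Actg1 split their counts unevenly between libraries: Actb held 55.9%, 54.7% and 39.9% of the actin counts in replicates 1, 2 and 3 of 3D, against 36.5%, 35.8% and 45.2% in 2D. On the substrates Acta2 held 10.2% ± 3.88 at 0.5 kPa, 9.24% ± 3.39 at 8 kPa and 9.48% ± 3.12 at 64 kPa of the actin counts.

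**Figure D5:**
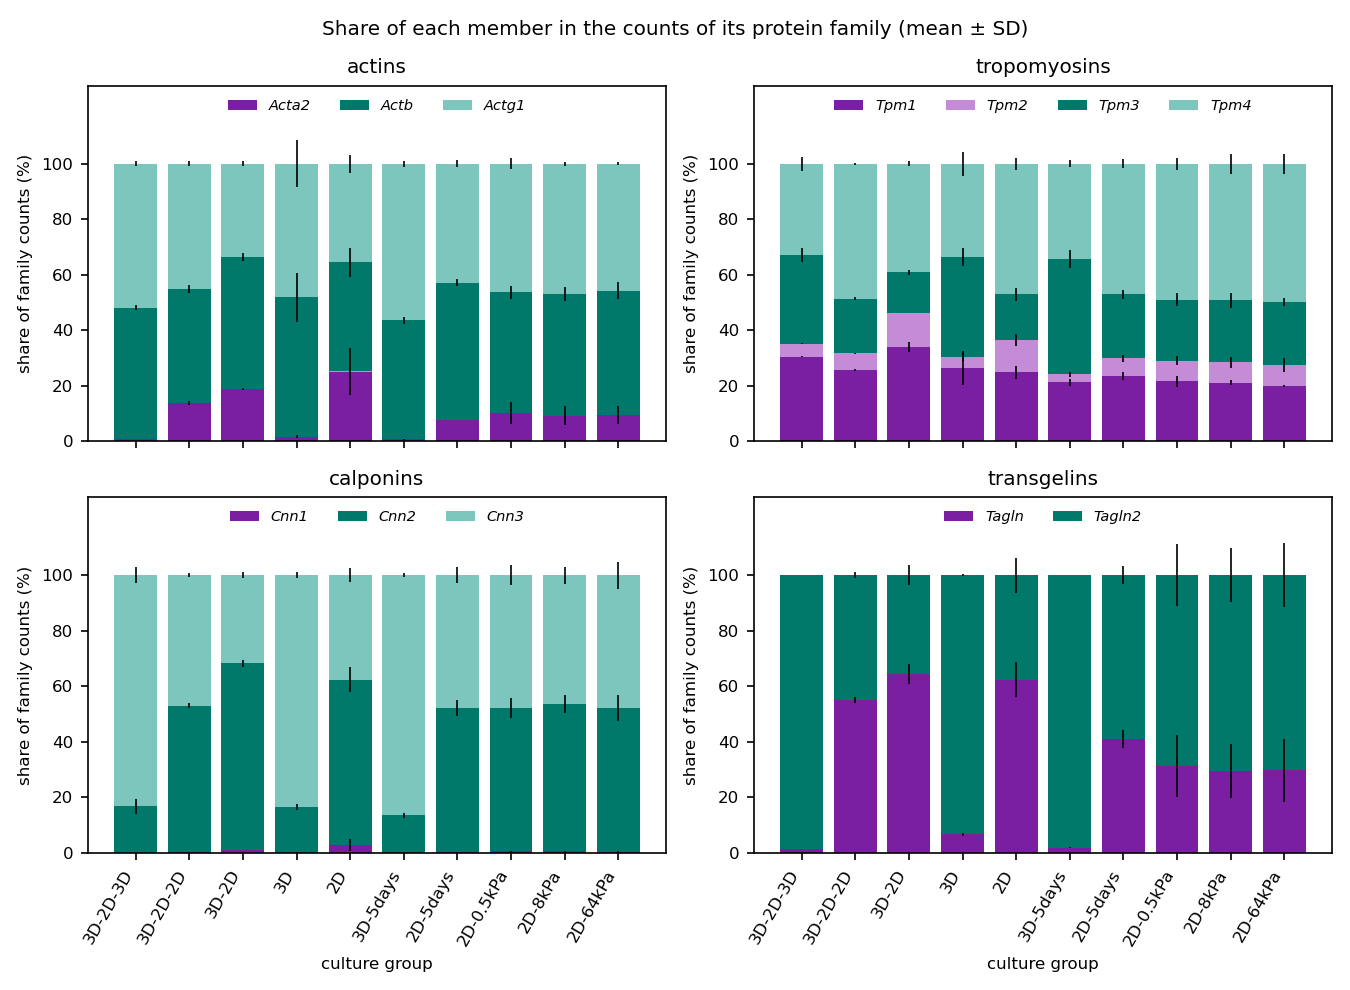
Mean share (%) ± SD of each gene in the summed counts of its protein family, by group; Actg2, Acta1 and Actc1 are drawn but too small to see. Acta2 and Tagln take small shares in 3D-2D-3D, 3D and 3D-5days and larger ones in the other groups, where Tagln takes 62.2% in 2D, and Cnn2 and Cnn3 exchange places, Cnn3 holding 83.6% in 3D.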

How the data were processed

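Expression of contractile and actin genes was taken from 29 RNA-seq libraries of mouse cardiac fibroblasts in 10 groups. The authors deposited raw read counts per gene symbol, whole numbers with no normalization; the submitters' processing notes name TopHat, HTSeq, Bowtie and MACS2 without versions or roles, and mm10. The sources used here give neither a strand setting nor an annotation. Summary lines of the counting were left out of all totals: reads not uniquely aligned were 14.0% to 28.4% of a library's lines, reads outside genes 4.84% to 10.0% and ambiguous reads 0.881% to 1.06%.

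From the counts, genes were kept by filterByExpr (14036 genes), scaled by TMM (factors 0.868 to 1.10) and tested with edgeR 4.0.16 (limma 3.58.1, R 4.3.3), robust quasi-likelihood, all libraries in 1 fit with a mean per group and no block, Benjamini-Hochberg over all genes. Standard errors come from the log2 fold change and F statistic, and 95% intervals from these with the moderated degrees of freedom. A count of 0 allows 3 counts. The script was checked on simulated counts. Alternatives were RLE factors, library totals, no filter, 1 CPM in 3 libraries, fits of the groups compared with and without the replicate block, DESeq2 1.42.0, each library left out, replicates 1 and 2, and replicate 3. Replicate numbers were taken as pairs where same-numbered deviations correlated above 0.1 in each of 3 pairs: 3D with 2D (0.155 to 0.243), the 5-day groups (0.325 to 0.603) and the substrates. The members, their split, the other pathway genes and the marker lists were chosen with earlier results of these data known. Every member may be named; of the pathway genes the 3 largest called rises and falls are. Chromatin libraries were not analysed here.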

Additional observations from a re-analysis of the deposited data

Results flagged for a closer look

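The difference between 3D and 2D cultures differed between the 5-day and the other cultures, by a test of the difference itself (edgeR, Benjamini-Hochberg over all genes), for 17 of the 41 genes tested. The log2 fold change at 5 days minus that at no stated time was -4.62 for Pdlim3, -3.12 for Mylk and -1.65 for Fhl2. Mylk was higher in 3D than in 2D (1.84) and lower in 3D-5days than in 2D-5days (-1.28), in 3 of 3 same-numbered pairs each. The same difference of fold changes was 1.38 for Tpm2, 1.32 for Tagln2, 1.03 for Flna, 0.94 for Myh9, 0.92 for Actg1, 0.92 for Tpm4, 0.79 for Pdlim7, 0.75 for Mkl1, 0.69 for Flnc, 0.67 for Tpm1, 0.67 for Cfl1, 0.61 for Myl6, 0.61 for Actn1 and 0.58 for Pdlim5. These 14 genes were called lower in 3D than in 2D. The calls of Actn1, Cfl1, Myl6, Pdlim5 and Tpm2 were lost when 1 library or another was left out, and 9 of the 17 held in every fit but those of replicate subsets: their causes were not tested.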

How the results depend on the processing

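Of the called members, 30 of 39 kept their call for 3D against 2D, 35 of 38 for 3D-2D against 3D, 28 of 35 for 3D-2D-3D against 3D-2D-2D, 34 of 37 for 3D-2D-3D against 3D-2D, 24 of 31 at 5 days, 9 of 17 for the difference of differences and 0 of 10 for 3D-2D against 2D, under every scaling, filter, tool, left-out library, fit of the groups compared and replicate block. For 3D-2D against 2D, 10 members and 2019 genes were called; a fit of these groups alone called 0 and 523, and leaving out 1 library gave 0 to 12 members and 171 to 2947 genes. With the replicate block that comparison had 25 members and 6264 genes, but its numbers do not pair the libraries (correlations of -0.00 to 0.04). Where they do, the block gave 2 genes for 8 against 0.5 kPa, and 3 members and 608 genes for 64 against 8 kPa; it changed no other call of a member than those given beside the results. The groups compared alone gave 2991 genes at 5 days (main 4548) and 2156 for the difference of differences (main 3583), where replicates 1 and 2 gave 2230; these gave 1 gene for 64 against 8 kPa. Replicate 3 alone, a single library a group whose spread is borrowed from the other groups, gave 4929 genes for 3D against 2D, 19 members and 1562 genes for 3D-2D-3D against 3D-2D-2D, and 15 members and 1534 genes at 5 days. It turned the sign of Myh10 (0.15) and Evl (-0.17) for 3D against 2D, and of Myh11 for the difference of differences (-3.62). Library totals alone shifted the median log2 change of all genes to 0.16 for 3D against 2D, -0.16 for 3D-2D against 3D, 0.22 for 3D-2D-3D against 3D-2D-2D and 0.13 at 5 days. Exact CArG boxes were found in 9 members and boxes with 1 mismatch in 15. Shares per length in place of counts were not run. The causes of these changes were not tested. Depth limits Acta1, Actc1, Actg2, Cnn1, Des and Myocd, which had few reads in several groups.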
